A study of Homo sapiens with 6 samples.

Results

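The ubiquitin-conjugating enzymes, or E2s, were described in H460 cells, an established human lung cancer cell line, in 3 libraries from cells kept for 24 h without glutamine (depleted) and 3 libraries from glutamine-replete cells (replete). Members were the gene symbols in the count tables that start with UBE2. Of 44 such symbols among 24462 distinct symbols, 7 were left out as pseudogenes, 2 as antisense RNAs and 1 as a read-through gene, which gave 34 E2 genes. All cultures were grown in RPMI medium with 10% serum and 1% antibiotics, and the depletion medium lacked glutamine and had dialyzed serum. Whether replete cells also had dialyzed serum during the 24 h is not given in the labels. Nor is it given that each library stems from its own culture, and the p-values therefore cover the spread among these libraries alone, which may be technical. H460 is 1 cell line, and no other line was compared.

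As background, ubiquitin is activated by an E1 enzyme, passed to the active-site cysteine of an E2 and moved from there to a target with the help of an E3 ligase. The E2 often sets which kind of ubiquitin chain is built, and so whether a protein is degraded, moved or switched in activity. A few E2s carry ubiquitin-like modifiers such as NEDD8 or ISG15 in place of ubiquitin. Some E2s are best known from the cell cycle: UBE2C and UBE2S work with the anaphase-promoting complex (APC/C), which ends mitosis by marking securin and cyclin B, and UBE2T works with the Fanconi anaemia ligase at DNA crosslinks and is transcribed mostly in cycling cells.

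Levels are CPM, counts scaled to the library total and to trimmed-mean (TMM) factors, given per library in the order of replicates 1, 2 and 3. Libraries held 8667798 to 10914899 counts in the depleted group and 7550849 to 9028230 in the replete group, and a count of 0 allowed up to 3 counts, or 0.275 to 0.397 CPM of a library. Depleted replicate 2 stood apart from the other depleted libraries, and the chi-square of its counts against them, divided by the degrees of freedom, was 18.0 and 10.9, where every other pair within a group lay between 1.496 and 3.71. It was the lowest depleted library for 16 of the 32 E2 genes tested. The keratins KRT8, KRT18 and KRT19 were expressed in both groups, whereas the epithelial markers EPCAM and CDH1 averaged at most 0.374 CPM in either group. KRT8 and KRT19 fell by 1.05 and 1.87 in log2 terms. Of the 6 epithelial markers, 4 were tested, and 1 rose, 2 fell and 1 did not pass. The 5 lung adenocarcinoma lineage markers summed to 1.495 to 2.878 CPM in depleted libraries and 0.246 to 0.820 CPM in replete libraries. The 1 tested among these rose. The 6 blood markers summed to 1.25 to 1.38 CPM in depleted libraries and 2.04 to 3.87 CPM in replete libraries, and among them the monocyte marker CD14 averaged 0.539 CPM in depleted and 2.41 CPM in replete cells and fell (log2 fold change −2.11, adjusted p = 0.000874 in edgeR). The 4 endothelial markers summed to 0 to 0.125 CPM in depleted libraries and 0.469 to 0.615 CPM in replete libraries, and the 4 squamous markers to 0.249 to 0.889 CPM in depleted libraries and 0 to 0.586 CPM in replete libraries. The 6 fibroblast markers, none at 0 in either group, summed to 52.0, 42.4 and 124 CPM in depleted libraries and to 26.2, 33.4 and 38.8 CPM in replete libraries. Depleted replicate 3 stood out in COL1A1 (82, 54 and 490 counts in depleted libraries) and COL1A2 (2, 3 and 158 counts). Of the 5 fibroblast markers tested, 2 rose, 1 fell and 2 did not pass. The part of these marker lists in the E2 results was not tested.

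Of the 34 E2 genes, 32 passed the filter on low counts. Among these, 16 rose and 8 fell in depleted cells at a Benjamini-Hochberg adjusted p under 0.05 in edgeR's quasi-likelihood test, and 8 did not pass. Of all 12739 genes tested, 78.6% passed, with 39.1% higher and 39.4% lower in depleted cells. The total of 24 E2 genes was thus close to the background. The share of E2 genes that rose was above it and the share that fell was below it, and neither difference was tested. With library totals in place of TMM factors, 13 E2 genes rose and 10 fell, against 32.4% and 46.5% of all genes. The median log2 fold change was 0.24 over the 32 E2 genes and −0.02 over all genes tested, and the difference between these medians was 0.26 with either scaling. A change of more than 2-fold passed for 8 E2 genes that rose and 5 that fell, where 21.8% and 23.7% of all genes did so. The depleted and replete ranges did not overlap for 26 of the 32, where 80.9% of all genes did not overlap. Of these 26 genes, 17 were higher and 9 lower in depleted libraries, where 39.9% and 41% of all genes were.

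**Figure D1:**
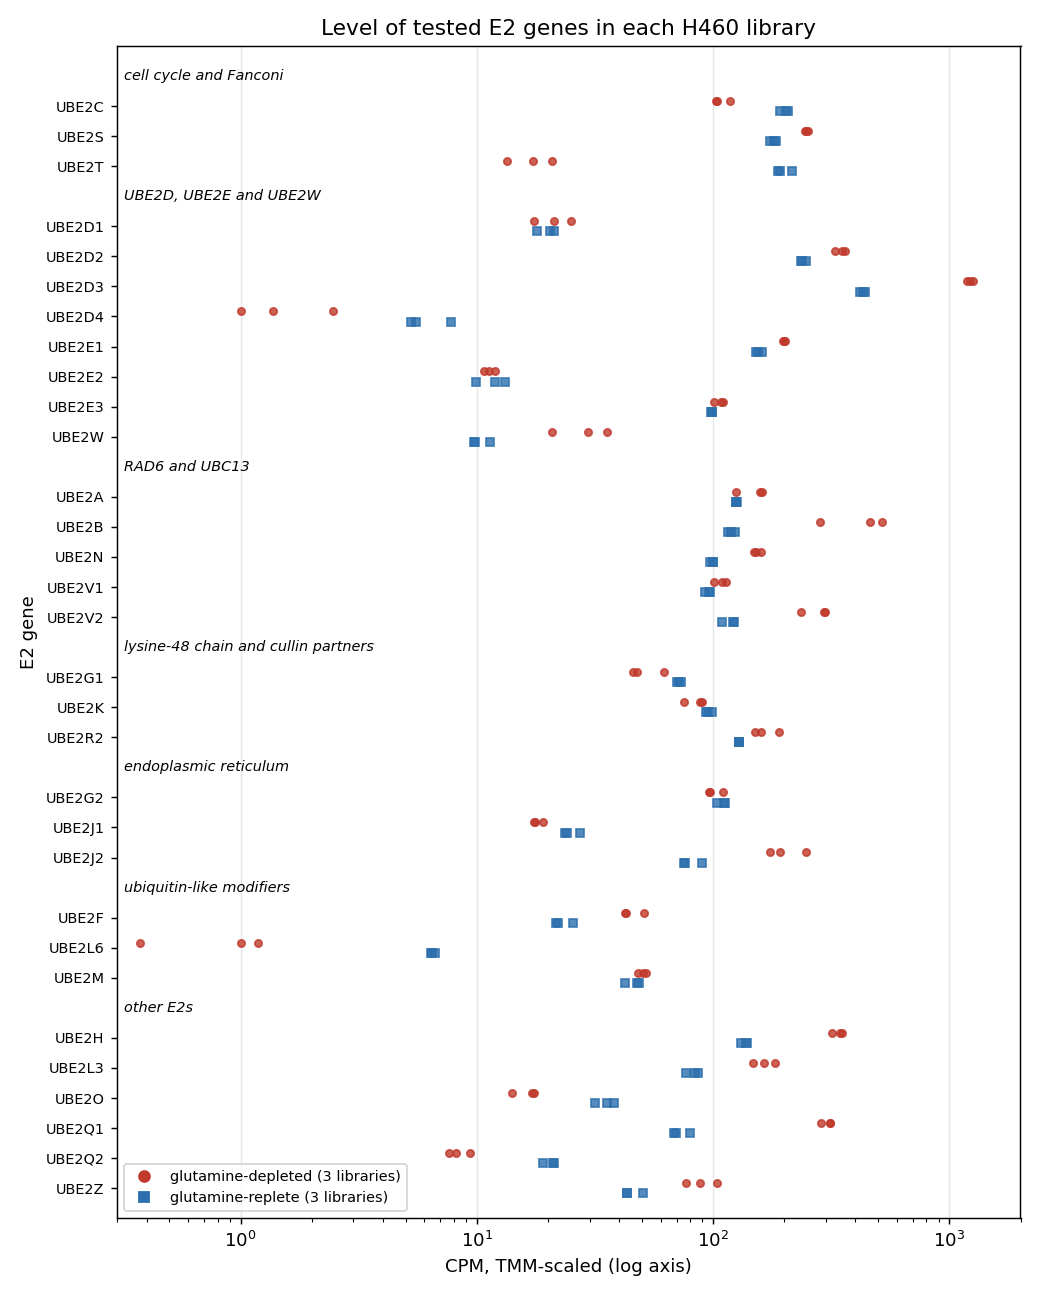
Level of 31 of the 32 tested E2 genes in each library, as TMM-scaled CPM on a log axis, by known role; circles are the 3 glutamine-depleted libraries and squares the 3 glutamine-replete libraries. UBE2T sits between 13.4 and 20.7 CPM in depleted libraries and between 187 and 217 CPM in replete libraries, while UBE2D3 sits above 1180 CPM in depleted libraries and at or below 437 CPM in replete libraries.

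The first comparison was between the cell-cycle E2s and the other E2s. Within the cell-cycle class UBE2T and UBE2C fell and UBE2S rose, so its members did not move in one direction. UBE2T, the E2 that works with the ligase FANCL to modify FANCD2, had 20.7, 13.4 and 17.3 CPM in depleted libraries and 217, 192 and 187 CPM in replete libraries. Every depleted library was far below every replete one. UBE2T fell by 3.52 in log2 terms (SE 0.14, edgeR adjusted p = 2.32e-10), or 11.5-fold, the steepest fall among the tested E2 genes. In bulk RNA, fewer cells with the transcript and less transcript per cell cannot be told apart.

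UBE2C, which starts ubiquitin chains on APC/C targets, had 103, 118 and 104 CPM in depleted libraries and 208, 193 and 203 CPM in replete libraries, with no overlap. It fell by 0.90 in log2 terms (SE 0.08, edgeR adjusted p = 2.71e-07). UBE2S, which lengthens the chains that UBE2C has begun, had 253, 248 and 244 CPM in depleted libraries and 184, 181 and 174 CPM in replete libraries. All depleted libraries were the higher ones for this gene, and it rose by 0.47 on the log2 scale (SE 0.07, edgeR adjusted p = 2.56e-05). The rise of UBE2S was smaller than 1.5-fold, and in a test against that fold change (edgeR's glmTreat) its adjusted p was 1.00, with 5.42e-10 to 1.00 over all alternatives.

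**Figure D2:**
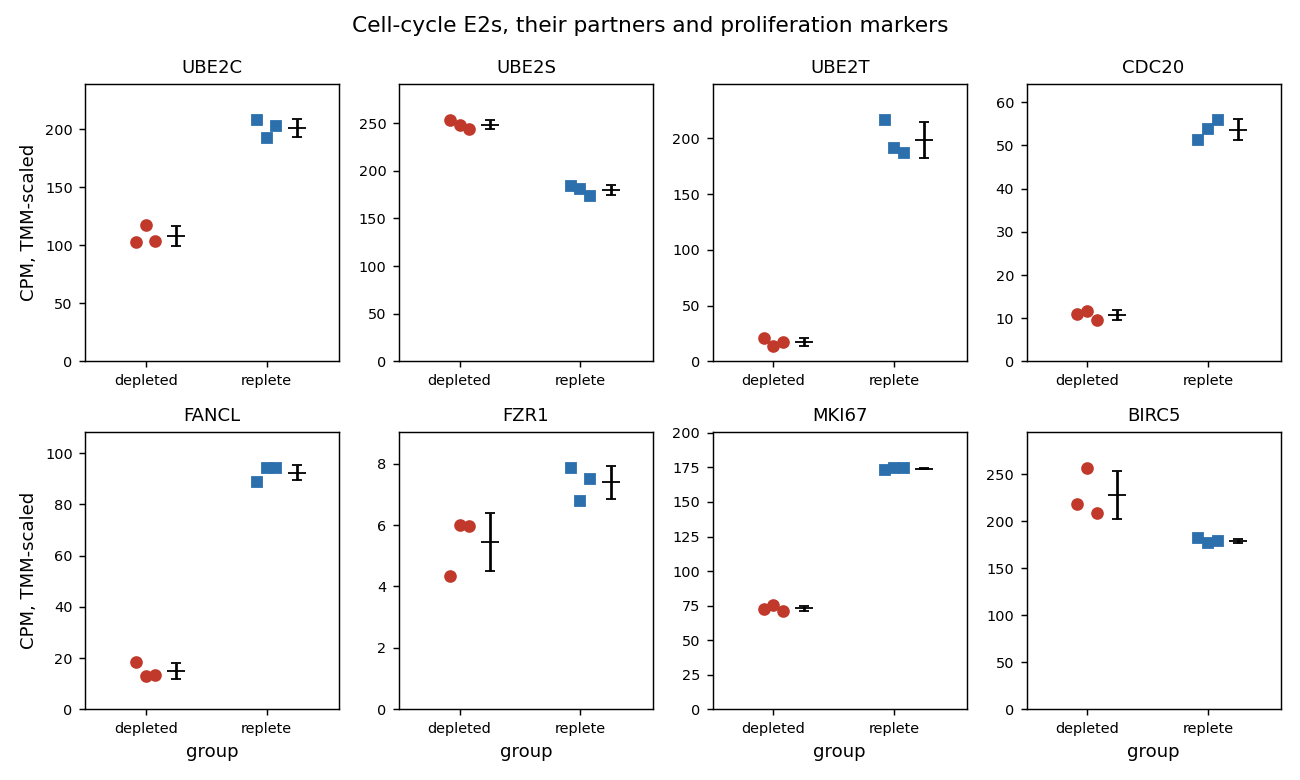
TMM-scaled CPM of the cell-cycle E2s UBE2C, UBE2S and UBE2T, of the APC/C activators CDC20 and FZR1, of the Fanconi ligase FANCL and of the proliferation markers MKI67 and BIRC5; points are the libraries, bars the mean ± SD of 3 depleted and 3 replete libraries, and axes start at 0. UBE2S and BIRC5 are higher in all depleted libraries, and the other 6 genes are lower in all of them.

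The ratio of UBE2S to UBE2C counts within a library does not depend on how libraries are scaled. It was 2.46, 2.10 and 2.35 in depleted libraries and 0.884, 0.940 and 0.857 in replete libraries, without overlap. Summed over UBE2C, UBE2S and UBE2T, the class held 377, 379 and 365 CPM in depleted libraries and 609, 565 and 564 CPM in replete libraries. As a share of all E2 counts this was 6.97%, 7.37% and 6.85% in depleted libraries and 18.3%, 17.5% and 17.2% in replete libraries. The other 31 E2 genes summed to 5027, 4758 and 4955 CPM in depleted libraries and to 2722, 2667 and 2714 CPM in replete libraries.

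Over all genes tested, 39.1% rose and 39.4% fell, with a median log2 fold change of −0.02. Of the 3 cell-cycle E2s, 1 rose and 2 fell, with a median log2 fold change of −0.90. Of the 29 other E2s that could be tested, 15 rose, 6 fell and 8 did not pass, with a median of 0.24. That median was 0.36 without depleted replicate 1, 0.012 with library totals alone and 0.027 with upper quartile factors. Those scalings also moved the median of all genes, to −0.25 and −0.23. Where the cell-cycle class was limited to the APC/C enzymes UBE2C and UBE2S, its median was −0.22, and with UBE2R2, a partner of SCF ligases, added to the 3 members it was −0.26. The median of the 3 members is the value of UBE2C. No test was made of the difference between the classes, whose members were assigned from their known roles.

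The promoters of UBE2T and UBE2S are shown because these genes are the cell-cycle members that moved farthest apart. They are 300-base windows from 250 bases before to 50 after the start site, from RefSeq on GRCh38.p14, which differs from the build hg19 named for the counted data. UBE2T lies at chr1:202341887-202342186 and UBE2S at chr19:55407739-55408038, both on the minus strand, and each is printed 5′ to 3′ on the strand of its gene with matched motifs in capitals.
UBE2T: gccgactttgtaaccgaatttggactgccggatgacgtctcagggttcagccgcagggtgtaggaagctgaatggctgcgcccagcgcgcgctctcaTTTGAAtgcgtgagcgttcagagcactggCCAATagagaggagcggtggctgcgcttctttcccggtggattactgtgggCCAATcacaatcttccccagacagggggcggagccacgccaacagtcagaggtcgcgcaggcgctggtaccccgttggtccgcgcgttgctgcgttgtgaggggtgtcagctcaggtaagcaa
UBE2S: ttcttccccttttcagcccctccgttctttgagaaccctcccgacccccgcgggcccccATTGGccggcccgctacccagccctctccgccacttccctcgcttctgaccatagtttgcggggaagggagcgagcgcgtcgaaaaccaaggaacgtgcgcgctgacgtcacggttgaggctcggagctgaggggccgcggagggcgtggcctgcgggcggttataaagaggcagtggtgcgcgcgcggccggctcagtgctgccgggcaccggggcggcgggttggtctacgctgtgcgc

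The UBE2T window held TTTGAA, one form of the cell cycle homology region of late cell cycle promoters, 153 bases before the start site, and CCAAT at 124 and at 73 bases before it. The UBE2S window held CCAAT once, 191 bases before the start site on the opposite strand, shown as ATTGG, and no TTTGAA. Both strands were searched, and the motifs do not overlap in these windows. Promoter windows were found for 27 of the 34 E2 genes, 39 windows in all. The cell-cycle E2 UBE2C had no window, and neither did UBE2B, UBE2H, UBE2Q1, UBE2V2 and UBE2W. The motif shares of E2 windows therefore do not cover these genes. TTTGAA was in 7.69% of these windows, those of UBE2T, UBE2F and UBE2U, and in 15.2% of all 35116 promoter windows in the table. CCAAT was in 28.2% of the E2 windows and 34.6% of all windows. The other form of the cell cycle homology region, TTCGAA, was in no E2 window and in 1.45% of all windows. The E2F sites TTTCGCGC, TTTGGCGC, TTTCCCGC and TTTGGCGG were in no E2 window, against 3.35% of all windows with at least 1 of them. Neither TGATGNAAN, an amino acid response element, nor TGANTCA, the AP-1 site, was in an E2 window, while 3.61% and 7.71% of all windows held them.

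Genes that act with the cell-cycle E2s were set beside them. FANCL had 18.7, 12.9 and 13.3 CPM in depleted libraries and 88.9, 94.2 and 94.0 CPM in replete libraries. It fell by 2.61 in log2 terms (SE 0.13, edgeR adjusted p = 9.22e-10), in the same direction as UBE2T. CDC20, the mitotic activator of the APC/C, had 11.1, 11.6 and 9.47 CPM in depleted libraries and 51.2, 53.9 and 55.9 CPM in replete libraries. CDC20 fell by 2.32 (edgeR adjusted p = 8.54e-10). FZR1, the activator that takes over after mitosis, fell by 0.45 (edgeR adjusted p = 0.0421) at under 8 CPM in every library.

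Of 16 tested APC/C subunits and regulators, 5 rose, 7 fell and 4 did not pass, with a median log2 fold change of −0.13. The 75.0% that passed lay close to the 78.6% of all genes, where 39.1% were higher and 39.4% lower in depleted cells. The scaffold subunit ANAPC5 fell by 1.51 and the small subunits ANAPC13 and CDC26 rose by 1.73 and 0.99. Of 13 proliferation markers, 12 fell and 1 rose, with a median log2 fold change of −1.25. MKI67 had 72.5, 75.2 and 71.3 CPM in depleted libraries and 173, 175 and 175 CPM in replete libraries, and fell by 1.25. PLK1 and CCNA2, a kinase and a cyclin of dividing cells, fell by 2.69 and 2.02. BIRC5, which encodes survivin, was the marker that rose, by 0.35, in the direction of UBE2S.

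**Figure D3:**
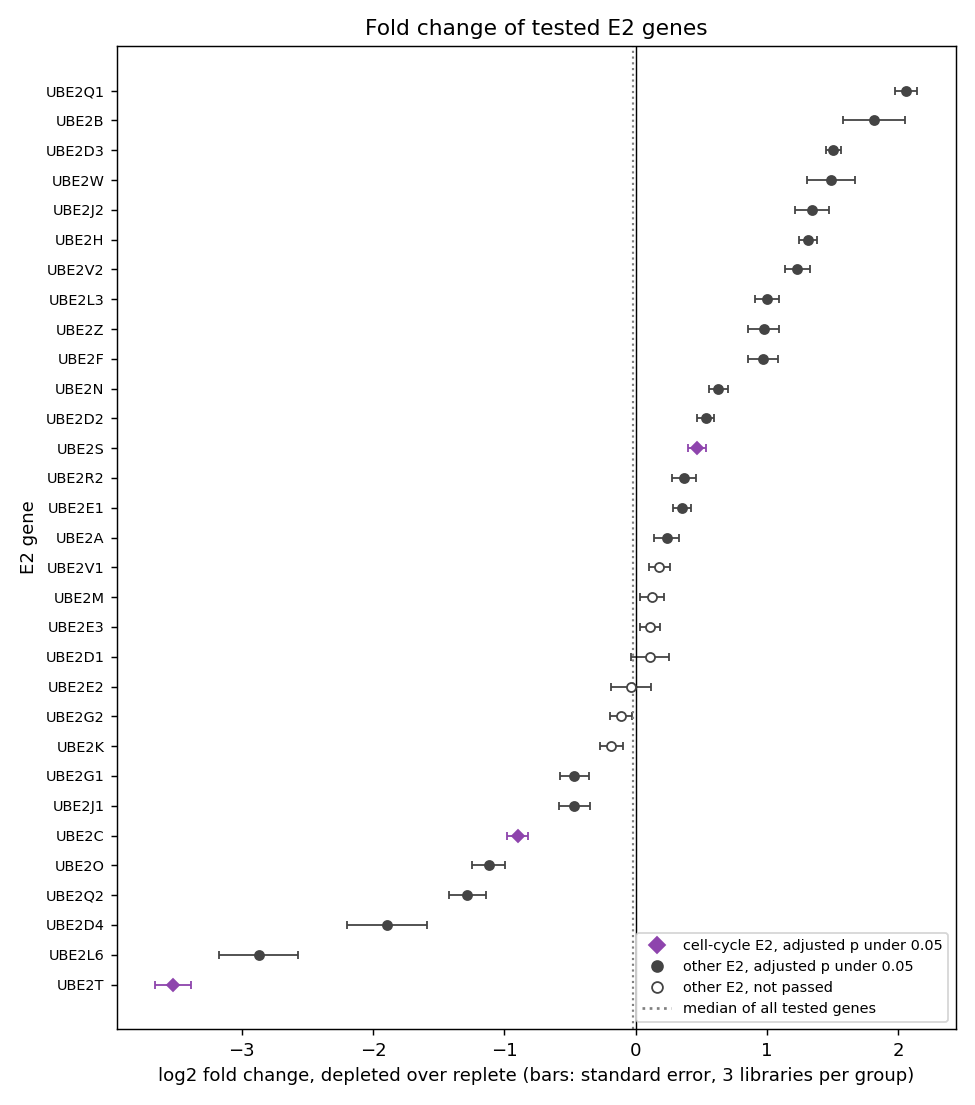
Log2 fold change, depleted over replete, of 31 of the 32 tested E2 genes, with bars for the standard error; diamonds are the cell-cycle E2s, circles the other E2s, open circles genes that did not pass, and the dotted line the median of all genes tested. UBE2T is lowest at −3.52 and UBE2Q1 highest at 2.06, and the cell-cycle E2s lie on both sides of 0.

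The UBE2D, UBE2E and UBE2W enzymes serve many different E3 ligases, and 4 of these 8 genes rose, 1 fell and 3 did not pass. The background for this group and the role groups that follow was 39.1% of all genes higher and 39.4% lower. UBE2D3, one of 4 close homologues that start ubiquitin chains with a wide range of ligases, had 1254, 1186 and 1218 CPM in depleted libraries and 437, 432 and 418 CPM in replete libraries. All depleted libraries were more than double any replete library, and UBE2D3 rose by 1.51 (SE 0.06, edgeR adjusted p = 1.28e-10). UBE2D2 had 362, 329 and 352 CPM in depleted libraries and 235, 238 and 248 CPM in replete libraries, and rose by 0.53. UBE2D1 did not pass and its groups overlapped, at a log2 fold change of 0.11 (SE 0.14, adjusted p = 0.509 in edgeR).

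UBE2D4 went the other way, with 25, 8 and 11 counts in depleted libraries and 76, 45 and 45 counts in replete libraries. It fell by 1.89 (SE 0.31, edgeR adjusted p = 8.07e-05), and the ratio of summed counts per library total was 0.229 with an exact 95% counting interval of 0.161 to 0.321. Its exons overlap those of POLR2J4 on the opposite strand in GENCODE 29, and with no statement that strand was used in counting, the pair may have shared reads.

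UBE2E1, an E2 with an extended N-terminus, averaged 199 ± 1.88 CPM in depleted and 156 ± 4.80 CPM in replete cells (SD, n = 3 each) and rose by 0.35 (edgeR adjusted p = 0.000368). It did not pass with library totals alone (edgeR adjusted p = 0.106). Over the alternatives that test against no change, the adjusted p ran from 3.36e-07 to that value. Nor did UBE2E1 pass in the test against a 1.5-fold change. Its homologues UBE2E2 and UBE2E3 had log2 fold changes of −0.04 (SE 0.15) and 0.11 (SE 0.08) and did not pass. UBE2E4P, a transcribed pseudogene that shares a synonym with UBE2E3 in RefSeq, averaged 51.3 ± 2.24 CPM in depleted and 49.5 ± 1.81 CPM in replete cells (SD, n = 3 each). Whether reads of UBE2E3 were split between UBE2E3 and UBE2E4P was not tested. UBE2W, which attaches ubiquitin to the N-terminus of proteins, had 35.6, 20.9 and 29.7 CPM in depleted libraries and 9.80, 11.4 and 9.71 CPM in replete libraries. Even depleted replicate 2, the lowest of its group, lay above the replete range, and UBE2W rose by 1.49 (SE 0.18, edgeR adjusted p = 7.89e-06), or 1.68 without that library.

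The RAD6 homologues UBE2A and UBE2B are near-identical enzymes that modify PCNA with the ligase RAD18 and histone H2B with RNF20 and RNF40, and their transcripts parted. UBE2B had 520.2, 283 and 459 CPM in depleted libraries and 124, 119 and 116 CPM in replete libraries. The depleted libraries differed widely among themselves, but each was more than double the replete level. It rose by 1.82 (SE 0.24, edgeR adjusted p = 0.000714), and by 2.04 without depleted replicate 2. UBE2A had 161, 124 and 158 CPM in depleted libraries and 125, 125 and 126 CPM in replete libraries, so depleted replicate 2 lay at the replete level.

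UBE2A passed narrowly, higher by 0.24 (SE 0.10, edgeR adjusted p = 0.0366). It did not pass when any 1 library other than depleted replicate 2 was left out. Its adjusted p ran from 9.76e-07 to 0.915 over the alternatives that test against no change. Against a 1.5-fold change UBE2A did not pass. Its exons overlap those of NKRF on the opposite strand. The ratio of UBE2B to UBE2A counts was 3.23, 2.27 and 2.91 in depleted libraries and 0.994, 0.949 and 0.921 in replete libraries. RAD18 had 29.6, 23.9 and 26.7 CPM in depleted libraries and 11.5, 12.0 and 9.71 CPM in replete libraries, and rose by 1.27 (edgeR adjusted p = 1.85e-06). RNF20, RNF40 and their adaptor WAC, chosen after their values were seen, rose by 0.50, 1.59 and 1.71, whereas HLTF, a ligase that lengthens ubiquitin chains on PCNA, fell by 3.34.

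UBE2N, also called UBC13, builds signalling chains only together with a partner, UBE2V1 or UBE2V2, that resembles an E2 but lacks the active-site cysteine. UBE2N had 160, 149 and 151 CPM in depleted libraries and 99.7, 97.1 and 100.2 CPM in replete libraries, and rose by 0.63 (SE 0.07, edgeR adjusted p = 3.86e-06). UBE2V2 had 297, 235 and 296 CPM in depleted libraries and 122, 109 and 121 CPM in replete libraries, and rose by 1.23 (SE 0.10, edgeR adjusted p = 7.66e-08). UBE2V1 had 109, 114 and 100.4 CPM in depleted libraries and 96.7, 95.6 and 92.5 CPM in replete libraries. The groups did not overlap for UBE2V1, yet its log2 fold change of 0.18 (SE 0.08) missed the threshold at an edgeR adjusted p of 0.0506. That p ran from 0.0313 to 0.759 over the alternatives that test against no change, and UBE2V1 did not pass against a 1.5-fold change. The read-through gene TMEM189-UBE2V1, which shares exons with UBE2V1, averaged 102 CPM in depleted and 89.9 CPM in replete cells. It had 1035, 855 and 771 counts in depleted libraries, where UBE2V1 had 1105, 907 and 806. In replete libraries it had 899, 769 and 714 counts, where UBE2V1 had 948, 816 and 753. Its log2 fold change was 0.179, beside 0.181 for UBE2V1. Whether the same reads were counted under both symbols was not tested. The count ratio of UBE2V2 to UBE2V1 was 2.72, 2.07 and 2.94 in depleted libraries and 1.26, 1.14 and 1.31 in replete libraries.

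**Figure D4:**
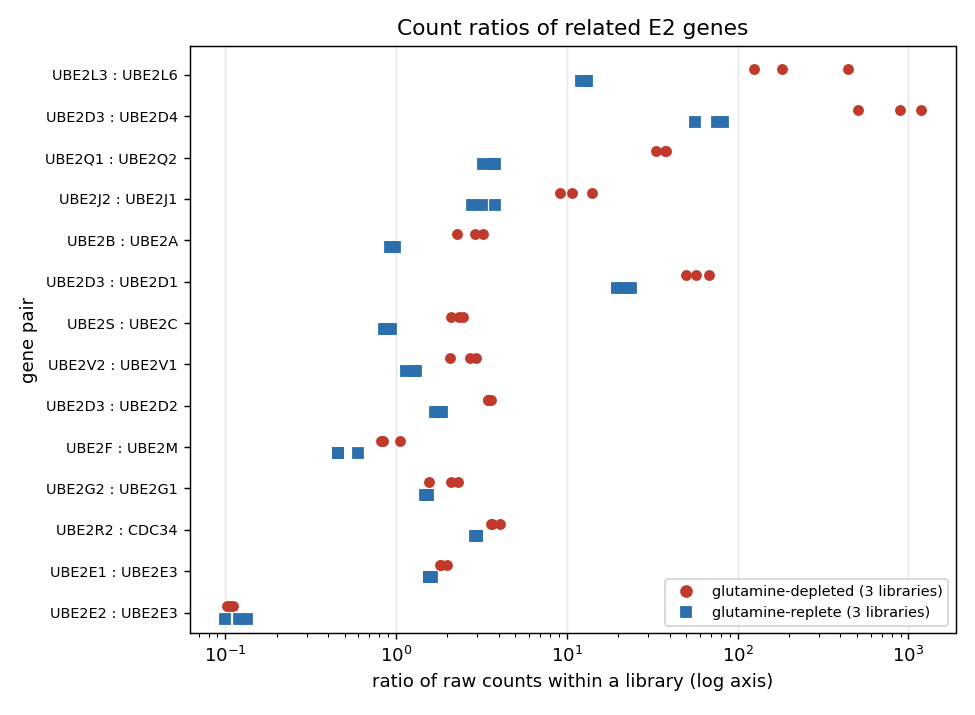
Ratio of raw counts between related E2 genes within each library on a log axis, for 14 pairs chosen after their values were seen; circles are the 3 glutamine-depleted libraries and squares the 3 glutamine-replete libraries. The groups do not overlap for 13 pairs, and UBE2E2 to UBE2E3 is the pair whose ratios overlap.

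Among the E2s that build degradation chains, with cullin ligases or without an E3 ligase, 1 rose, 1 fell and 1 did not pass. UBE2R2, which works with SCF ligases, had 150.2, 191 and 159 CPM in depleted libraries and 128, 129 and 129 CPM in replete libraries, and rose by 0.37 (SE 0.09, edgeR adjusted p = 0.00218). With library totals alone its log2 fold change was 0.14 and did not pass (edgeR adjusted p = 0.153). Its adjusted p ran from 8.03e-05 to 0.153 over the alternatives that test against no change. Against a 1.5-fold change UBE2R2 did not pass. CDC34, its homologue under another symbol, had 37.1, 53.2 and 43.2 CPM in depleted libraries and 43.0, 44.3 and 43.4 CPM in replete libraries, which overlap, at a log2 fold change of 0.03 (adjusted p = 0.841 in edgeR). UBE2G1, a partner of cullin 4 ligases, had 62.1, 47.5 and 45.9 CPM in depleted libraries and 73.3, 70.1 and 72.0 CPM in replete libraries, and fell by 0.47 (edgeR adjusted p = 0.00195).

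UBE2K can make degradation chains without an E3 ligase. It had 87.9, 75.3 and 90.0 CPM in depleted libraries and 99.4, 93.2 and 95.2 CPM in replete libraries. All its depleted values were the lower ones, but the log2 fold change of −0.18 (SE 0.09) did not pass (edgeR adjusted p = 0.0701). With library totals alone it was −0.41 and passed (edgeR adjusted p = 0.000885). The adjusted p ran from that value to 0.165 (DESeq2) over the alternatives that test against no change. Against a 1.5-fold change UBE2K did not pass. The SCF subunit SKP2, which recruits the inhibitor p27, had 8.99, 3.50 and 9.97 CPM in depleted libraries and 77.9, 82.0 and 74.8 CPM in replete libraries. It fell by 3.37 in log2 terms (SE 0.27, edgeR adjusted p = 1.00e-05).

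The E2s of the endoplasmic reticulum, which serve the removal of misfolded proteins, also differed from each other. UBE2J2, anchored in the membrane by its tail, had 174, 248 and 192 CPM in depleted libraries and 76.2, 75.6 and 89.8 CPM in replete libraries. Each depleted library was nearly double the highest replete one or more, and UBE2J2 rose by 1.34 (SE 0.13, edgeR adjusted p = 1.72e-06). UBE2J1, the other tail-anchored E2, had 19.1, 17.5 and 17.7 CPM in depleted libraries and 24.1, 27.3 and 23.7 CPM in replete libraries, and fell by 0.47 (SE 0.12, edgeR adjusted p = 0.00257). UBE2G2, a soluble E2 that is recruited to the membrane, did not pass and had overlapping groups (log2 fold change −0.11, SE 0.08, adjusted p = 0.246 in edgeR). Without depleted replicate 2 it passed at −0.17 (edgeR adjusted p = 0.0168). Its adjusted p ran from 0.00207 to 0.55 over the alternatives that test against no change. Against a 1.5-fold change UBE2G2 did not pass. The count ratio of UBE2J2 to UBE2J1 was 9.12, 14.1 and 10.8 in depleted libraries and 3.17, 2.77 and 3.79 in replete libraries.

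Among the 4 E2s of ubiquitin-like modifiers, 1 rose, 1 fell and 2 did not pass. UBE2F and UBE2M both carry NEDD8, the activator of cullin ligases. UBE2F had 42.2, 50.8 and 42.7 CPM in depleted libraries and 22.1, 25.6 and 21.6 CPM in replete libraries, and rose by 0.97 (SE 0.11, edgeR adjusted p = 4.31e-06). It shares exons with the read-through gene UBE2F-SCLY, which averaged 19.9 CPM in depleted and 18.1 CPM in replete cells. UBE2M had 50.5, 48.3 and 52.2 CPM in depleted libraries and 48.4, 42.4 and 47.4 CPM in replete libraries, and did not pass (log2 fold change 0.13, SE 0.09, adjusted p = 0.224 in edgeR). The genes of the NEDD8-activating E1 fell: NAE1 had 45.5, 46.5 and 41.6 CPM in depleted libraries and 276, 279 and 292 CPM in replete libraries, and fell by 2.66 (SE 0.08, edgeR adjusted p = 1.10e-11), and its partner subunit UBA3 fell by 1.01. NEDD8 itself did not pass (log2 fold change −0.08, adjusted p = 0.512 in edgeR).

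UBA2, a subunit of the SUMO E1, rose by 0.81 (edgeR adjusted p = 2.07e-06). SUMO2 fell to 35.7, 34.2 and 29.7 CPM in depleted libraries, against 89.6, 91.8 and 92.5 CPM in replete libraries (log2 fold change −1.46, edgeR adjusted p = 1.06e-08).

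UBE2L6, the E2 for the interferon-induced modifier ISG15, had 12, 8 and 3 counts in depleted libraries and 65, 55 and 52 counts in replete libraries. No depleted library came near the replete range. UBE2L6 fell by 2.87 (SE 0.30, edgeR adjusted p = 1.46e-06), and the ratio of summed counts per library total was 0.116 with an exact 95% counting interval of 0.0714 to 0.179. ISG15 had 2.37, 5.01 and 3.99 CPM in depleted libraries and 1.43, 3.05 and 1.72 CPM in replete libraries. These ranges overlapped, and ISG15 rose by 0.86 (SE 0.35, edgeR adjusted p = 0.0392).

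The remaining E2s that could be tested all passed, 4 higher and 2 lower. UBE2Q1, an E2 with a long N-terminal extension, had 314, 287 and 313 CPM in depleted libraries and 80.2, 69.8 and 68.5 CPM in replete libraries. It rose by 2.06 on the log2 scale (SE 0.08, edgeR adjusted p = 1.56e-10), or 4.17-fold, the largest rise of any tested E2 gene. UBE2Q2, its closest homologue, had 8.20, 7.63 and 9.35 CPM in depleted libraries and 21.0, 19.0 and 21.1 CPM in replete libraries, and fell by 1.28 (SE 0.14, edgeR adjusted p = 2.01e-06). The count ratio of UBE2Q1 to UBE2Q2 was 38.3, 37.6 and 33.4 in depleted libraries and 3.82, 3.68 and 3.24 in replete libraries, a 10.2-fold difference between geometric means.

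UBE2H, the E2 of the CTLH ligase complex, had 344, 319 and 353 CPM in depleted libraries and 131, 138 and 139.8 CPM in replete libraries, and rose by 1.31 (SE 0.07, edgeR adjusted p = 2.23e-09). MAEA, a catalytic subunit of that complex, had 135, 143 and 128 CPM in depleted libraries and 38.0, 38.1 and 39.9 CPM in replete libraries, and rose by 1.81 (SE 0.08, edgeR adjusted p = 4.86e-10). UBE2L3, which hands ubiquitin to the cysteine of HECT and RBR ligases, had 147, 184 and 165 CPM in depleted libraries and 86.2, 84.1 and 77.1 CPM in replete libraries, and rose by 1.00 (SE 0.09, edgeR adjusted p = 4.31e-07). Its exons overlap those of RIMBP3C on the opposite strand.

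UBE2Z, which receives ubiquitin from the E1 UBA6, had 88.1, 104 and 76.9 CPM in depleted libraries and 50.4, 43.4 and 43.0 CPM in replete libraries, and rose by 0.98 (SE 0.12, edgeR adjusted p = 4.65e-06). UBA6 had 28.6, 23.2 and 27.4 CPM in depleted libraries and 44.5, 39.6 and 37.9 CPM in replete libraries, and fell by 0.62 (edgeR adjusted p = 0.000222). UBE2O, a large enzyme that acts as E2 and E3 in one, had 14.0, 17.4 and 17.2 CPM in depleted libraries and 38.0, 35.5 and 31.6 CPM in replete libraries, and fell by 1.12 (SE 0.13, edgeR adjusted p = 2.75e-06). UBE2QL1 had 4 counts over the depleted and 4 over the replete libraries, and UBE2U had none in any library, so a difference was not detectable at this depth.

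Over the 14 pairs of related genes, the count ratios of the groups did not overlap for 13, and an exact two-sided permutation test over the libraries gave p = 0.100 for each of these (0.108 adjusted over the pairs), the smallest that 3 against 3 libraries allow. Among single genes, 80.9% had ranges that did not overlap, so such separation was the rule in these libraries. Reads come from the 3′ end of a transcript, and the level of a ratio also depends on how well each end was captured. The change of a ratio between groups compares each gene with itself, provided that each end was captured alike in both groups. Whether it was so was not tested.

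The whole family took a larger part of the counts in depleted cells, at 0.501%, 0.470% and 0.492% of all counts in depleted libraries and 0.362%, 0.348% and 0.353% in replete libraries. UBE2D3 alone made up 23.2%, 23.1% and 22.9% of E2 counts in depleted libraries and 13.1%, 13.4% and 12.7% in replete libraries. Without UBE2D3, UBE2B, UBE2D2, UBE2Q1 and UBE2H, picked after their values were seen, the remaining 29 E2 genes held 0.242%, 0.250% and 0.243% of all counts in depleted libraries and 0.252%, 0.241% and 0.247% in replete libraries, which overlap.

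Genes upstream of the E2s moved in both directions. UBB, which encodes a polyubiquitin, had 229, 278 and 231 CPM in depleted libraries and 589, 572 and 568 CPM in replete libraries, and fell by 1.23 (SE 0.08, edgeR adjusted p = 1.36e-08). UBA1, the main ubiquitin E1, reached at most 117 CPM in depleted libraries and at least 158 CPM in replete libraries, and fell by 0.63 (edgeR adjusted p = 1.17e-05).

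Of 9 tested E1 genes, 3 rose, 4 fell and 2 did not pass (median log2 fold change −0.01), and MOCS3, the E1 of the modifier URM1, rose by 0.51. Of 12 ubiquitin and ubiquitin-like genes, 7 rose, 4 fell and 1 did not pass (median 0.39), and UFM1, a modifier of ribosomes at the endoplasmic reticulum, rose by 2.11. Among 7 E2s with other symbols, 4 rose, 2 fell and 1 did not pass (median 0.51). UFC1, the E2 of UFM1, and BIRC6, a giant E2 that restrains caspases, rose by 0.73 and 0.91. ATG10, the E2-like enzyme that joins ATG12 to ATG5, and AKTIP, which resembles an E2 without the active-site cysteine, fell by 1.83 and 1.72. Of 44 E3 ligases and cofactors known to work with E2s, 26 rose, 7 fell and 11 did not pass (median 0.49), with MDM2 the largest rise at 2.16. In the order given, 77.8%, 91.7%, 85.7% and 75.0% of these lists passed. Of all genes tested 78.6% passed, with 39.1% higher and 39.4% lower in depleted cells.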

How the data were processed

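Per the labels, total RNA was extracted with TRIzol, and 500 ng entered Lexogen QuantSeq 3′ mRNA libraries. Bowtie2, edgeR and hg19 are named in the submitters' processing notes without a role. The deposited values are raw counts per gene symbol, 1 library per file. Which program counted the reads, on which annotation and with or without strand, is not given in the sources used here. Counts of the 286 symbols on several entries were summed, and none of these was an E2 gene.

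The fit ran on the whole table in edgeR 4.0.16 (R 4.3.3): filterByExpr (minimum count 10, minimum total 15), TMM factors, and the robust quasi-likelihood test between the groups, two-sided, with Benjamini-Hochberg adjustment over 12739 genes and a threshold of 0.05. Standard errors are the log2 fold change divided by the root of the test's F. On simulated counts with these library totals (12560 genes tested), the test called 97.1% of the 103 genes changed by 1 on the log2 scale and 100% of the 97 changed by 2. Of its 210 calls, 13 were false. The simulation gave every gene and library the same spread beyond counting error and changed few genes, all of them well counted. In these data 78.6% of genes passed and depleted replicate 2 stood apart, so the simulated rates need not hold here.

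Every E2 gene is described except 1 that, like some other genes, is counted but not reported here. From each list of other pathway genes the 2 largest changes in each direction that passed were named, plus CDC34, CDC20, FZR1, FANCL, UBA1, UBA6, UBB, NEDD8, SUMO2, ISG15, RAD18 and MKI67 in any case. The members and lists were chosen with earlier results of these data known. Exon overlaps come from GENCODE 29. Pseudogenes were those so annotated in RefSeq or with a symbol ending in P and an optional number. Intervals and limits cover counting error only. DESeq2 1.42.0, limma 3.58.1 (voom) and the other alternatives are in the closing section. The count ratios and the glmTreat test were chosen after seeing the data.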

Additional observations from a re-analysis of the deposited data

How the results depend on the processing

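Over 16 alternatives, 16 of the 24 E2 genes that passed kept their direction and passed under each in which they were tested. The other 8 lost the call under at least 1. UBE2D2, UBE2G1, UBE2J1, UBE2N and UBE2S lost it only in the test against a 1.5-fold change, and UBE2A, UBE2E1 and UBE2R2 lost it in others too. Between 13 and 17 E2 genes rose and 8 to 10 fell, outside the test against a 1.5-fold change. In that test 10 rose and 6 fell, where 26.1% and 27.1% of all genes did so. Of all genes, 39.1% rose and 39.4% fell in the main fit, and 32.4% and 46.5% with library totals alone. With upper quartile factors, 4188 of 12739 genes rose and 5866 fell. Library totals alone and upper quartile factors moved the median log2 fold change of all genes to −0.25 and −0.23. The median of the cell-cycle E2s was then −1.13 and −1.11, and that of the other E2s 0.012 and 0.027. Under these scalings UBE2D1 (−0.12 and −0.11), UBE2E3 (−0.12 and −0.10), UBE2M (−0.10 and −0.083) and UBE2V1 (−0.046 and −0.028), which had not passed, changed sign. UBE2A, UBE2E1 and UBE2R2 no longer passed under either, and UBE2G2 and UBE2K did. The cause was not tested. Limiting the cell-cycle class to UBE2C and UBE2S gave a median of −0.22, and adding UBE2R2 gave −0.26, since the middle gene changes. Leaving out 1 library moved the median of the other E2s between 0.21 and 0.36 (without depleted replicate 1) and that of the cell-cycle E2s between −0.96 and −0.86, and changed the sign of UBE2D1, with a range of −0.028 (without depleted replicate 1) to 0.241, and of UBE2E2, with a range of −0.169 to 0.036 (without replete replicate 2). With a replicate block, 16 E2 genes rose and 8 fell. Libraries with the same number were not paired, since their deviations correlated at 0.119, 0.00611 and 0.0366. At a mean of at least 10 CPM, UBE2D4 and UBE2L6 were left out and have no value. Depth limits UBE2D4, UBE2L6, UBE2QL1 and UBE2U.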
